A study of Mus musculus with 8 samples.

Results

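The baseline platelet transcriptome of control mice was described from the 4 control libraries of the series, with no comparison between genotypes. An entry of the deposited gene table was taken as a member when its FPKM was above 0 in all 4 control mice, and members were ranked by mean FPKM and by their share of the summed FPKM after the entry AY036118 had been set aside. FPKM divides a transcript's fragments by its length and by the library's mapped total, so levels of different genes are compared here per length. Of 43548 entries, 850 met the rule, and the 849 that remained without AY036118 made up 1.95% of the table. A further 2042, 851 and 525 entries were above 0 in 1, 2 and 3 mice, and 39280 were listed at 0 in all 4.

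The series holds bulk RNA-seq of washed platelets from 4 TNFdARE mice, which lack AU-rich elements of the Tnf transcript and overproduce TNF-α, and from 4 littermate control mice negative for TNFdARE. The control mice were labelled B6, were 8 to 12 weeks old. By label, control mice 1 and 4 were female and control mice 2 and 3 were male. Other fields of the same labels speak of 3 mice per group and of older male mice, and the number, age and balance of sexes used here are those of the titles, the characteristics and the study's methods, with the sex of each mouse taken from its label. Whole platelet preparations were sequenced as 150 bp reads, with 1 library per mouse, and each library reflects whatever other blood cells the washing left behind.

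Platelets are cell fragments without a nucleus that MKs shed into blood. Their RNA is mostly inherited from the MK, and it is known to be rich in transcripts for granule chemokines, adhesion receptors, the cytoskeleton and calcium signaling. Blood spun for platelets can also carry reticulocytes, which hold abundant globin mRNA, and leukocytes.

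AY036118 alone took up from 33.7% (mouse 4) to 51.8% (mouse 2) of a column's total. Without it, the columns summed to 30550 to 36570 FPKM. The number of entries above 0 was 1479 in mouse 1, 2196 in mouse 2, 2302 in mouse 3 and 2742 in mouse 4, so mouse 1 had the fewest and mouse 4 the most. In mouse 1, 311 entries were listed at 0 that were above 0 in the other 3 mice, compared with 34 to 95 such entries in each of the others. How many reads stand behind each column is unknown. Genes used by nearly every cell were also listed at 0, among them Hprt and Ppia in all 4 mice, so a 0 in the table cannot be read as absence of the transcript.

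All 5 platelet markers were above 0 in every control mouse and ranked among the 68 highest members. Ppbp, which encodes the precursor of the chemokine CXCL7, stood at 285 FPKM in mouse 1, 294 in mouse 2, 296 in mouse 3 and 408 in mouse 4. Pf4, which encodes platelet factor 4, stood at 223, 213, 472 and 195 FPKM in mice 1 to 4. The first of these was highest in mouse 4, whereas the second was highest in mouse 3. Tubb1, the β-tubulin of the platelet marginal band, stood at 169, 124, 88.2 and 127 FPKM. Gp9, a subunit of the GPIb-IX-V receptor for von Willebrand factor, ranged from 28.3 FPKM in mouse 1 to 118 FPKM in mouse 3. Itga2b, the αIIb subunit of the fibrinogen receptor, stood at 62.5, 81.0, 91.4 and 57.6 FPKM. The coefficient of variation (CV, the SD as a percentage of the mean) was lowest for Ppbp at 18.1% and highest for Gp9 at 52.2%.

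Ppbp and Pf4 are neighbors on chromosome 5 and are the highest of the granule cargo genes. The 250 bases before the RefSeq start of these genes and of the receptor genes Gp9 and Itga2b are shown because they are the regulatory stretches next to 4 of the 5 markers (GRCm38.p6, strand of the gene, chr5:90772185-90772434 plus, chr5:90768268-90768517 plus, chr6:87777820-87778069 plus and chr11:102469884-102470133 minus). Capitals mark the letters of 3 motifs searched on both strands, which were AGATAA, bound by GATA factors, CNGGAAG, bound by ETS factors, and the TATA box letters TATAAA.
Pf4: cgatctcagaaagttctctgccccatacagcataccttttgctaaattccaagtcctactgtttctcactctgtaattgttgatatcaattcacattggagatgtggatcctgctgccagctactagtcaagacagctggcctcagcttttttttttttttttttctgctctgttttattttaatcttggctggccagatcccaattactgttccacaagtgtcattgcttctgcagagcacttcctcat
Ppbp: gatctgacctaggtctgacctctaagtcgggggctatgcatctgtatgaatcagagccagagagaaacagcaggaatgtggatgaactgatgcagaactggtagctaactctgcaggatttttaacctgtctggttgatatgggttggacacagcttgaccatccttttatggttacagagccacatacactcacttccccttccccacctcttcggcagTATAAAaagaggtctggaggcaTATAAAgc
Gp9: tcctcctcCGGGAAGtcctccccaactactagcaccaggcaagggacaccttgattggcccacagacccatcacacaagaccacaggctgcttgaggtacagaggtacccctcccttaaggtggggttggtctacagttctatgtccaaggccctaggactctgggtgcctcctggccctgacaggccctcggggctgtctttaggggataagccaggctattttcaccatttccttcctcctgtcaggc
Itga2b: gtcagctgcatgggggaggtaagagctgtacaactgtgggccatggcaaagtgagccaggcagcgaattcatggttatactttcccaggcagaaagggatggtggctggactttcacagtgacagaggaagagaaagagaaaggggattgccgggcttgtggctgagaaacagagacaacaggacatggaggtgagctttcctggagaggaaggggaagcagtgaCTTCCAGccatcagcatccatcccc

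The Ppbp window held TATAAA at 2 places. The Gp9 and Itga2b windows each held CNGGAAG, the latter on the reverse strand and 19 bases before the start. No searched letters were present in the Pf4 and Tubb1 windows, and none of the 5 marker windows held AGATAA. Of 32851 RefSeq windows of the same length, 9.99% held AGATAA, 26.6% held CNGGAAG and 12.4% held TATAAA. Among the 718 windows of the 537 members that matched RefSeq by symbol, the shares were 5.71%, 32.7% and 7.10%. These matches are a description of letters and do not show binding.

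The 10 highest members held 35.2% ± 2.1 of the summed FPKM (SD, n = 4), with 33.5% in mouse 1, 36.6% in mouse 2, 33.3% in mouse 3 and 37.5% in mouse 4. The 100 highest held 70.1% ± 0.63, and all members together held 89.0% ± 1.4. Levels fell steeply down the ranking, with 48 members at a mean of 100 FPKM or more, 322 at 10 or more and 54 below 1. The median member had a mean of 6.33 FPKM. Ranking by share in place of FPKM kept all 25 of the highest members and moved none by more than 1 place.

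The highest member was Gm26602, a predicted gene of 285 bases at chr10:79910856-79911140 (mm10, plus strand). It stood at 3779, 4597, 4389 and 4122 FPKM in mice 1 to 4 and held 12.7% ± 1.3 of the summed FPKM. Gm20721, a predicted gene at chr2:174330319-174346712 on the minus strand, followed at 2568, 2355, 2472 and 2872 FPKM. The mice differed little in either gene, with CVs of 8.38% and 8.63%. Gm17035, Gm10197 and Yam1 came next with means of 898 ± 210, 688 ± 151 and 664 ± 289 FPKM. Yam1 was the most uneven of them, from 336 FPKM in mouse 4 to 1027 FPKM in mouse 2. The longest annotated transcripts of the 25 highest members had a median of 864 bases, against 3138 bases for all annotated members. FPKM divides by length, and the part of short length in these levels and shares was not tested.

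**Figure D1:**
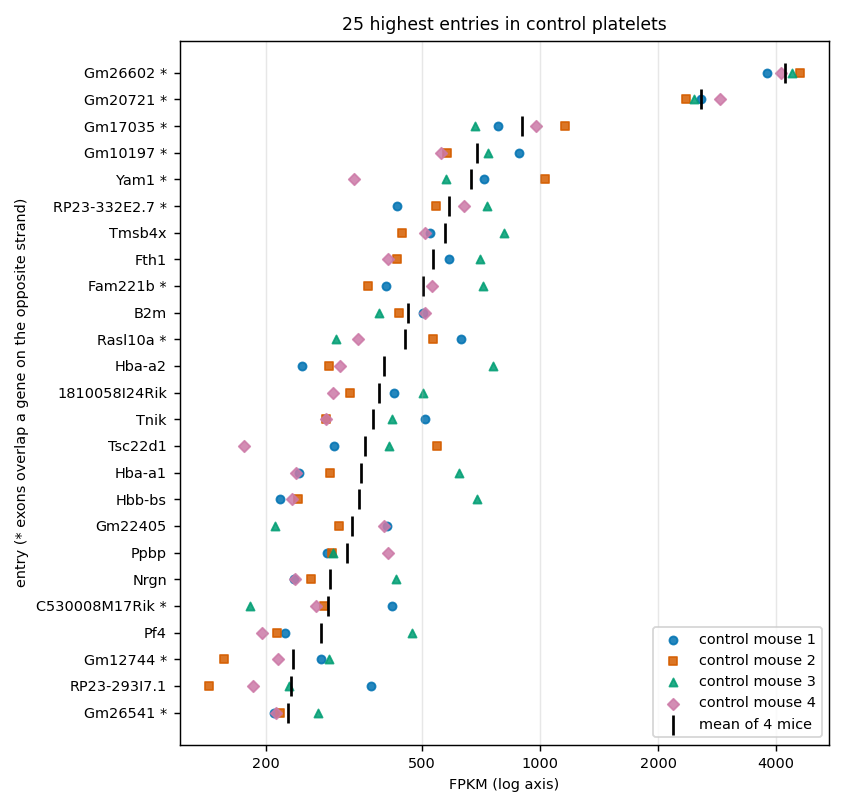
FPKM of the 25 highest members (log axis) in each control mouse, with the mean of the 4 mice as a black bar; an asterisk marks entries whose exons overlap a gene on the opposite strand. Gm26602 and Gm20721 lie above 2000 FPKM in every mouse, and mouse 3 stands apart to the right for Hba-a2, Hba-a1, Hbb-bs and Pf4.

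Many of the highest members are predicted genes whose exons lie over another gene on the opposite strand. In the GENCODE M21 annotation, Gm26602 shares 284 of its 285 bases with exons of R3hdm4, Gm20721 shares 1469 of 1484 with Gnas, Gm17035 shares all 419 with Ndrg1, and Gm10197 shares 194 of 201 with Mxi1. The partners were lower in every mouse, which the choice of the highest entries makes likely. Gnas, which encodes the stimulatory G protein α subunit that raises platelet cAMP, stood at 66.3, 121, 89.8 and 106 FPKM, and R3hdm4 stood at 20.9, 26.6, 31.8 and 24.8 FPKM. Ndrg1 had a mean of 11.5 FPKM and Mxi1 a mean of 5.09 FPKM. The sources used here do not state whether reads were counted by strand, and without strand the reads of such a gene and its partner cannot be told apart.

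The share of annotated entries with such an overlap was 18.3% in the whole table, 16.0% among entries listed at 0 in all 4 mice and 38.6% among those above 0 in 1 to 3 mice. It was 41.7% among members and 51.5% (95% Wilson interval, 41.8 to 61.1%, counting error only) among the 99 annotated entries of the 100 highest, and 44.0% and 47.5% among the 25 and 200 highest. The median length of the longest transcript also differed, from 1222 bases for entries listed at 0 in all 4 to 3138 bases for members and 1586 bases for the 100 highest, and its part in the overlap was not tested. The 351 members with an overlap, of any size and with a partner at any level, held 52.5% ± 3.1 of the summed FPKM. Of them, Gm26602 and Gm20721 alone held 20.5%. The 439 coding members without an overlap held 29.98% ± 2.2. Of the 100 highest members, 47 had an opposite partner in the table. Of these, 44 were higher than their highest partner, which the choice by level largely fixed in advance. That partner was a member too in 31 cases, while 1.95% of the whole table were members.

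**Figure D2:**
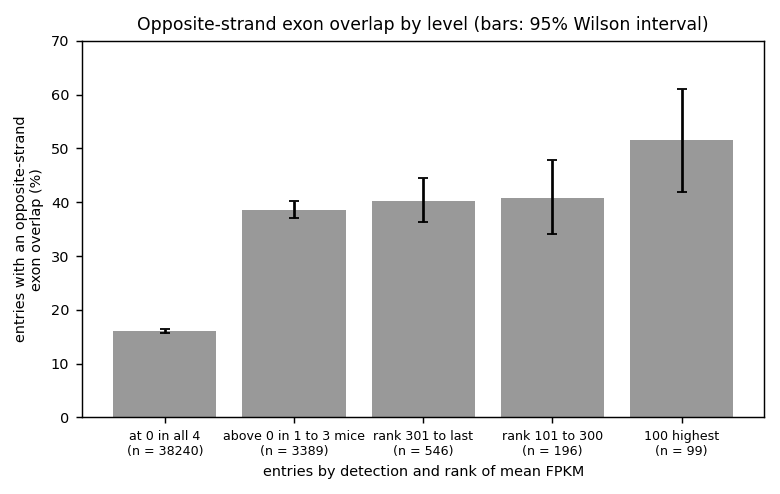
Percent of annotated entries whose exons overlap a gene on the opposite strand, by detection and by rank of mean FPKM; whiskers are 95% Wilson intervals. The bar is 16.0% for entries listed at 0 in all 4 mice and 51.5% for the 100 highest members, while the 25 highest, not drawn, had 44.0%.

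Of the 99 members on the platelet gene lists, 22 had an opposite partner in the table, and the highest partner was above the member in 7 and below it in 15. Zyx, Cd9 and Rasgrp2, described below, were far above theirs, at 0.841, 0 and 0.881 FPKM. The following pairs were chosen because the partner was higher. Selp, which encodes P-selectin, had a mean of 5.11 FPKM, compared with 105 FPKM for Gm16548, which shares 438 exon bases with it. Ilk, the integrin-linked kinase, which is on none of the lists, had a mean of 11.8 FPKM beside 53.3 FPKM for Taf10. Lyn, a Src family kinase, had a mean of 10.7 FPKM beside 36.5 FPKM for Gm26857. Vcl, which encodes vinculin, had a mean of 3.91 FPKM beside 51.5 FPKM for Ap3m1. In each pair the partner was the higher entry in every mouse. Rasl10a and Gas2l1 overlap by only 14 bases, and Rasl10a, a Ras-like gene, stood at 627, 534, 301 and 344 FPKM.

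Among members without an opposite overlap, Tmsb4x, Fth1 and B2m had the highest means, and 3 globin genes, described with the erythroid list, were among the 10 highest. Tmsb4x, which encodes the actin monomer-binding thymosin β4, stood at 522, 443, 807 and 508 FPKM in mice 1 to 4. Fth1, the ferritin heavy chain that stores iron, stood at 587, 431, 702 and 408 FPKM. B2m, the light chain of MHC class I, stood at 502, 437, 389 and 507 FPKM. Mouse 3 was the highest for both Tmsb4x and Fth1 and the lowest for B2m. The kinase gene Tnik (374 ± 110 FPKM), the transcriptional regulator Tsc22d1 (358 ± 158 FPKM), the 7SL RNA of the signal recognition particle (listed as Gm22405, 331 ± 92.1 FPKM) and Nrgn, a calmodulin-binding protein (290 ± 92.5 FPKM), also ranked among the 25 highest.

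Chemokines and adhesive proteins of α-granules were well represented. Of 20 genes listed for granule cargo, 12 were members (60%), 1 was above 0 in 1 to 3 mice and 7 were listed at 0 in all 4. Clu, which encodes clusterin, stood at 197, 143, 175 and 220 FPKM. Vwf, the adhesive ligand of GPIb, stood at 200 FPKM in mouse 1 and at 45.0, 51.8 and 40.0 FPKM in mice 2 to 4, so its mean of 84.2 FPKM lies above the level of the other 3 mice. Srgn, the granule proteoglycan, had a mean of 47.2 FPKM, and Tgfb1, Thbs1 and F5 had means of 27.5, 22.8 and 17.0 FPKM. Ccl5, Igf1, Pdgfb, Sparc, Timp3 and Vegfa were among those listed at 0 in all 4 mice. Of 19 genes for the granule membrane and for granule formation, 3 were members (15.8%, against 1.95% of the whole table), namely Lamp1 (14.3 FPKM), Selp and Lamp2 (3.59 FPKM), and Cd63 was listed at 0 in all 4.

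Adhesion receptors were the most completely detected of the lists of more than 5 genes, with 17 members of 21. Cd9, a tetraspanin of the platelet surface, was the highest at 131, 132, 230 and 177 FPKM. Gp1bb stood at 129, 65.5, 69.8 and 40.0 FPKM, so that mouse 1 was the highest for Gp1bb and the lowest for its receptor partner Gp9. Gp5 and Gp1ba, the other chains of that receptor, had means of 20.8 and 11.01 FPKM. The β3 chain Itgb3 had a mean of 23.5 FPKM against 73.1 ± 15.8 FPKM for Itga2b. Clec1b, the podoplanin receptor CLEC-2, had a mean of 34.0 FPKM, and Gp6, the collagen receptor, had a mean of 9.13 FPKM. Agonist receptors were lower, with 4 members of 12, among them the ATP channel P2rx1 (8.50 ± 3.2), the ADP receptor P2ry12 (8.13 ± 1.8) and the thrombin receptor F2rl2 (6.02 ± 3.2).

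Actin and myosin genes had the largest mean share among the lists, at 4.06% ± 0.45 of the summed FPKM, although the erythroid list was larger in mouse 3 (2233 against 1711 FPKM). The actin and myosin list had 26 members of 35 and none listed at 0 in all 4 mice. After Tmsb4x came Zyx, a focal adhesion protein, at 158, 212, 202 and 137 FPKM, and Myl9, the regulatory myosin light chain, at 90.3, 126, 163 and 96.9 FPKM. Actb stood at 87.3, 97.3, 86.0 and 54.1 FPKM, and Flna and Myh9 had means of 26.4 and 14.6 FPKM. Cfl1, which encodes the actin-severing cofilin, was uneven, at 5.48 FPKM in mouse 1 and 42.3 to 73.3 FPKM in the others. Of 15 microtubule genes, 6 were members, and Tubb1 was followed by Tubb6 with a mean of 25.2 FPKM.

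Of 43 signaling genes in the table, 24 were members, and the list held a share of 2.53% ± 0.021 that was nearly the same in every mouse. Ywhah, which encodes 14-3-3η, had the smallest ratio of highest to lowest mouse among the 100 highest members, at 101, 103, 96.4 and 101 FPKM with a CV of 2.76%. Gng11, a G protein γ subunit, stood at 67.5, 93.0, 117 and 84.1 FPKM. Rasgrp2, the exchange factor that activates Rap1, had 1 of the 5 largest such ratios, at 174, 53.6, 26.4 and 76.8 FPKM. Fermt3 and Tln1, which encode the integrin activators kindlin-3 and talin, had means of 28.8 and 25.3 FPKM. Btk, Vav1, Plcb2 and Plcb3 were listed at 0 in all 4. Of the eicosanoid enzymes, 4 of 7 were members, namely Alox12 (35.8 ± 7.4 FPKM), Alox5ap (28.7 ± 8.5), Ptgs1, the cyclooxygenase-1 gene (20.04 ± 9.5), and Tbxas1, the thromboxane synthase gene, which stood at 26.3 FPKM in mouse 2 and 5.00 to 6.11 FPKM in the others. Of 14 MK transcription factors, 4 were members, and Nfe2 (17.2 ± 7.5 FPKM) was above Gata1 (3.74 ± 3.5), Gata2 and Tal1.

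Genes of the ribosome and of oxidative phosphorylation were members at shares near the 1.95% of the whole table, so their small numbers do not set either family apart. Of all annotated coding entries, 715 of 21512 were members. Of 87 ribosomal protein genes, 3 were members (3.45%) and 53 were listed at 0 in all 4 mice, as were Hprt and Ppia. Of 14 translation factors, 7 were members, led by Pabpc1 (10.7 ± 2.4 FPKM). Rps9 stood apart from the rest at 64.0, 125, 73.9 and 56.1 FPKM, and the next, Rpl41, had 26.0 FPKM in mouse 1 and 3.04 to 6.22 FPKM elsewhere. Of 94 nuclear genes of oxidative phosphorylation (2.13% members), the members were Atp5e, a small subunit of ATP synthase, at 218, 199, 255 and 181 FPKM, and Cox6b1 at a mean of 26.8 FPKM, and 63 were listed at 0 in all 4. All 37 mitochondrially encoded genes were listed at 0 in all 4, and no proteasome gene of 44 was a member. Of 87 histone genes 8 were members, led by Hist1h2bc at 124, 151, 155 and 152 FPKM. Atp5e lies beside Tubb1 on chromosome 2, in the region that also holds Gm20721 and Gnas.

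Processed pseudogenes, which are intronless copies of mRNAs, contributed 38 members and 3.12% ± 0.48 of the summed FPKM. A coding gene with at least 95% identity over at least 150 bases was found for 33 of them, and 14 of the 33 had a higher mean than that gene. Gm12715 stood at 125, 126, 71.8 and 79.1 FPKM, whereas the cytoskeletal actin gene Actg1 stood at 17.5, 34.0, 18.2 and 17.2 FPKM. Gm10080 stood at 67.3, 36.0, 89.0 and 47.4 FPKM, whereas the myosin light chain gene Myl6 stood at 1.19, 4.195, 7.03 and 3.04 FPKM. In both pairs the copy was the higher in every mouse. Each copy differed from its coding gene at only 4 aligned positions, over 1128 bases for Gm12715 and over 438 bases for Gm10080. Stretches of 60 coding bases are shown because they hold some of these positions (GRCm38, chr4:103564206-103564265 plus, chr11:120346757-120346816 minus, chr9:44375038-44375097 minus and chr10:128492618-128492677 minus), with the differing bases in capitals. They hold 3 of the 4 positions for Gm12715 and 2 of the 4 for Gm10080, so differences are denser there than over the whole alignment.
Gm12715: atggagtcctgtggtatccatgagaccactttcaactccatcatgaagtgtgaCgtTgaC
Actg1: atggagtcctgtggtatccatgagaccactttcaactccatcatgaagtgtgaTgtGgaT
Gm10080: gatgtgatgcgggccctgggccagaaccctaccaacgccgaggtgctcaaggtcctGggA
Myl6: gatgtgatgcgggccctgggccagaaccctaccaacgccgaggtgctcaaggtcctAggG

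How reads that fit both a copy and its coding gene were assigned is not given in the sources used here, so the levels of such pairs are uncertain. The same holds for Hba-a1 and Hba-a2, which are 99.8% identical over 538 bases, and for Fth1, Ftl1 and the 7SL genes. Of the 100 highest members, 34 had another gene with this similarity elsewhere in the genome.

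Globin transcripts were the main sign of another cell type. Of 21 erythroid genes, 10 were members, and their list summed to 794, 894, 2233 and 861 FPKM in mice 1 to 4. Mouse 3 stood far above the other 3 mice, with Hba-a2 at 758 FPKM against 246 to 308, Hba-a1 at 621 against 238 to 290 and Hbb-bs at 689 against 216 to 241. The 4 globin genes held 5.94% of the summed FPKM of mouse 3 and 2.20% to 2.69% of the others. Without them the erythroid list summed to 60.5, 50.4, 59.3 and 38.6 FPKM, and this sum did not set mouse 3 apart. Its genes differed, and Mkrn1, a large part of the sum, stood at 32.5, 22.7, 21.6 and 23.6 FPKM, highest in mouse 1. Alas2, the erythroid enzyme of heme synthesis, had a mean of 11.6 FPKM. It stood at 8.68, 9.34, 21.0 and 7.18 FPKM in mice 1 to 4, highest in mouse 3 like the globins. Klf1, Rhag and Hemgn were listed at 0 in all 4. In such bulk samples, fewer cells of a type and less RNA per cell cannot be told apart. Pf4, Nrgn and Tmsb4x were also highest in mouse 3, and the part of erythroid RNA in these levels was not tested.

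Most leukocyte and endothelial markers were listed at 0 in all 4 mice, and the highest of those above 0 were Lyz2 and Igkc. None of 15 neutrophil markers was a member, and only Lcn2 was above 0, at 3.66 FPKM in mouse 2. Of 12 monocyte and macrophage markers, Lyz2 was the only member, at 30.8, 37.3, 50.3 and 47.3 FPKM, while Cd14, Cd68 and Csf1r were listed at 0 in all 4. The 11 B cell markers summed to 0, 3.01, 37.9 and 7.13 FPKM, with Igkc at 23.2 FPKM in mouse 3 and Cd74 at 0, 3.01, 9.02 and 0.986 FPKM in mice 1 to 4. The T and NK cell markers summed to at most 2.07 FPKM in any mouse and the endothelial markers to at most 2.14 FPKM. Ptprc, the pan-leukocyte marker CD45, was listed at 0 in all 4 mice.

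**Figure D3:**
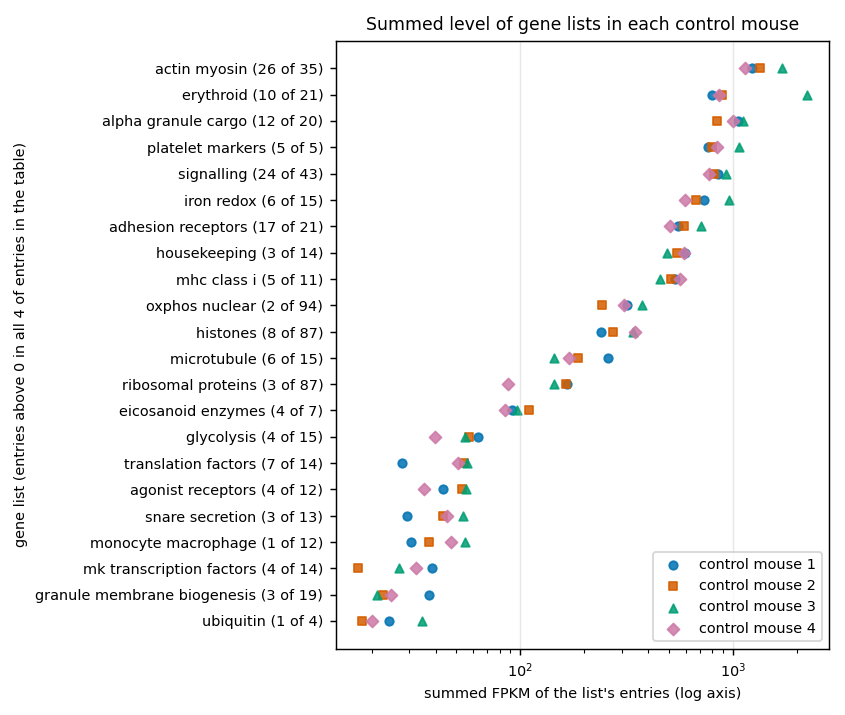
Summed FPKM (log axis) of each gene list with at least 1 member, by control mouse; the numbers after a name are members of entries in the table. The lists of actin and myosin, granule cargo, signaling and adhesion genes keep the mice close together, whereas mouse 3 stands apart for the erythroid list at 2233 FPKM, of which the 4 globin genes made up 2173 FPKM.

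Agreement in rank was measured for each pair of mice. Spearman's rho across the 849 members, which share library preparation and gene length and are not independent replicates, was 0.691 between mice 1 and 2, 0.689 between mice 1 and 3, 0.740 between mice 1 and 4, 0.789 between mice 2 and 3, 0.816 between mice 2 and 4 and 0.812 between mice 3 and 4. The pairs with mouse 1 were thus the lowest, and the mean of the 6 pairs was 0.756. Within the 100 highest members rho ranged from 0.728 to 0.857. Within ranks 101 to 300 it ranged from -0.023 to 0.521, and within the remaining members from 0.320 to 0.559. These groups span unequal ranges of level (means of 38.5 to 4222, 10.7 to 37.6 and 0.0103 to 10.7 FPKM), and a narrow range lowers rho, so the values do not compare agreement between them. Over all entries above 0 in at least 1 mouse, the mean rho was 0.400.

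**Figure D4:**
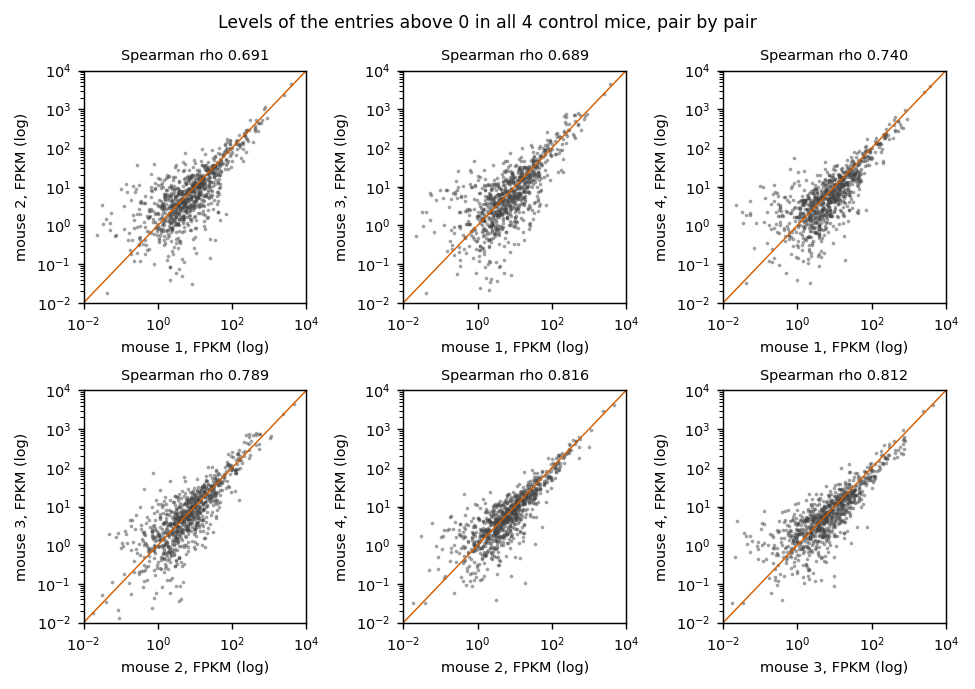
FPKM of the members in each pair of control mice (both axes log; the orange line marks equal levels), with 6 members that fell below 0.01 FPKM in a mouse not drawn in that mouse's panels. Points tighten around the line above about 100 FPKM and fan out below, and the 3 pairs with mouse 1 have the lowest rho, from 0.689 to 0.740.

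The same 5 entries (Gm26602, Gm20721, Gm17035, Gm10197 and Tmsb4x) stood in the top 10 of every mouse. Of the 25 highest entries of each mouse, 17 were shared by all 4, and of the 100 highest, 68 were shared. In pairs of mice, 49.2% to 63.1% of members were within a factor of 2 of each other. The median CV was 30.7% for the 100 highest members, 43.1% for ranks 101 to 300, 60.9% for the rest and 52.6% over all. By the ratio of the highest to the lowest mouse, the 5 smallest spreads among the 100 highest members were those of Ywhah, Tpm4, a tropomyosin (47.7 ± 4.2 FPKM), Gm26602, Gm20721 and Hist1h2bc. The 5 largest ratios were those of Rasgrp2, Cfl1, Nptn, which encodes neuroplastin (200, 94.3, 23.9 and 47.5 FPKM), Gm15886 (87.6, 157, 14.6 and 96.6 FPKM) and 1 of the entries named AK157302, which had 7.75e-05 FPKM in mouse 1 and 32.5 to 85.2 FPKM in the others. The CV gives another order at the uneven end, where Vwf (91.9%) exceeded all 5 of these.

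**Figure D5:**
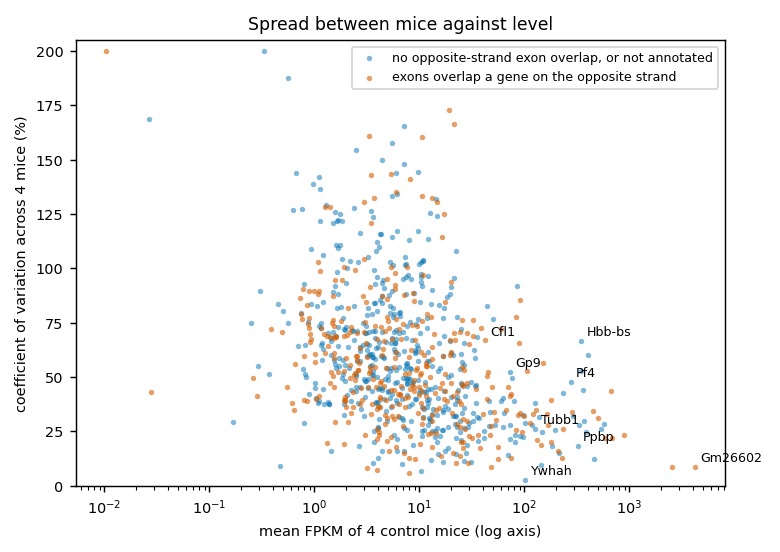
CV across the 4 control mice (percent) against mean FPKM (log axis) for the 849 members, colored by opposite-strand exon overlap. The spread falls with level, and Ywhah (2.76%) and Gm26602 (8.38%) lie at the bottom, whereas Hbb-bs (66.5%) and Cfl1 (66.8%) lie high for their level.

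The threshold of 0 admits very low estimates. Among members, 258 had a value under 1 FPKM in at least 1 mouse and 38 had a value under 0.1. Lrrc58 was a member with 5.43e-09 FPKM in mouse 1 and 0.0922 FPKM in mouse 2. Just outside stood entries that were high in some mice and listed at 0 in others, such as Gm12481 (120, 0, 190 and 52.6 FPKM in mice 1 to 4), Gm15776 (195.5 FPKM in mouse 3 and 0 elsewhere), Rps23-ps (83.0, 19.6, 56.9 and 0 FPKM) and Gm29331 (0, 49.2, 40.4 and 64.8 FPKM). Of the 371 entries with a mean of at least 10 FPKM, 322 were above 0 in all 4 mice.

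Female and male control mice were compared to see whether sex, as labelled, separates the mice. Xist and the Y-linked genes Ddx3y, Eif2s3y, Kdm5d and Uty were listed at 0 in all 4 mice, so the labels could not be checked against the data. On log2(FPKM + 1), 65 of 1629 tested entries had an unadjusted p below 0.05 by limma (3.99%), and 1 had a Benjamini-Hochberg adjusted p below 0.05 (0.0614%). Of the 795 members tested, 21 had an unadjusted p below 0.05, which is 2.64% and below the share over all entries, and 0 passed the adjustment with limma. The 1 entry that passed was RP23-187F18.1, which is not a member, since it was listed at 0 in both females and stood at 66.4 and 66.2 FPKM in the males (limma adjusted p = 0.0408). It passed the filter on the mean through the males alone, and a 0 in the table cannot be read as absence, so the call is given as a description and supports no difference between the sexes. Among members lower in females, RP24-492O4.4 had the smallest p, at 15.6 and 30.7 FPKM in females and 93.2 and 103 FPKM in males. Among those higher in females it was Hist2h2aa2, at 48.0 and 16.0 FPKM in females and 1.40 and 3.50 FPKM in males. The limma adjusted p of both was 0.708. On the opposite strand, RP24-492O4.4 shares 447 exon bases with Vps37b, and Hist2h2aa2 shares 586 with Gm20633. Each limma p sets the difference between the sexes against a variance that is drawn partly from all tested entries. It rests on only 2 mice of each sex, and a p that misses the threshold does not show that the sexes are alike. The adjusted call was lost under most other settings.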

How the data were processed

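Platelet RNA was extracted with TRIzol, treated with DNase and sequenced as 150 bp reads by the authors. The gene table that the authors deposited names no unit. Its values were read as FPKM, since the submitters' processing notes name Cufflinks and column totals differ. The notes also name mm10. The aligner version, annotation, use of strand and treatment of multi-mapped reads are not given in the sources used here. The 4 control columns were matched to samples by library name, 0 value columns were left unmapped, and the 4 TNFdARE columns were not used here. Low values gave no step readable as 1 read, so depth is unknown and no count model or interval for counting error was possible.

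Members are entries above 0 in all 4 control mice. Means are given with the SD over mice. Females and males were compared with limma 3.58.1 in R 4.3.3 on log2(FPKM + 1) for entries with a mean of at least 1 FPKM, with a trend and Benjamini-Hochberg adjustment, after the script had been tested on simulated data. Exon overlaps came from GENCODE M21 (GRCm38), which held 42470 of 43548 identifiers, and similar transcripts from BLAST 2.17.0. Promoter windows came from RefSeq (GRCm38.p6). Python 3.11.15, pandas 2.3.3, SciPy 1.17.1 and matplotlib 3.10.9 were used.

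Genes named are the 25 highest members, the 5 markers, up to 4 leading genes and defining genes at 0 of each list, the 5 most and least even of the 100 highest by the ratio of highest to lowest mouse, the 5 highest entries with a 0, and the smallest p by sex. Opposite-strand partners, pseudogenes and some list members fall outside that rule, picked once their values had been seen. The members and lists were chosen with earlier results of these data known. Alternatives changed the detection limit, pseudocount, filter, scaling, ranking and genes summed, and left out each mouse in turn. A symbol is repeated in 165 entries, and 1 such repeat adds an entry to the T and NK cell list, so entries were joined by identifier. Results for some genes are left out of the text.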

Additional observations from a re-analysis of the deposited data

Results flagged for a closer look

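Library measures, list sums and the genes whose level is given in every mouse were examined for 1 mouse standing apart from the other 3, by its gap to the nearest mouse divided by the whole range and Dixon's 95% critical value for 4 samples. Of 133 groups of 4 values examined, 17 exceeded it. Chance alone flags about 1 in 20 groups, but these groups overlap (globins, lists and markers) and include entries chosen for being uneven or for holding a 0, so the 17 cannot be set against that rate.

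Mouse 3 was the highest for the summed erythroid list (ratio 0.931), the 4 globins together (0.924, and 0.869 for their share of the summed FPKM), Hba-a2 (0.880), Hba-a1 (0.864) and Hbb-bs (0.947), with 2173 FPKM for the 4 globins against 734 to 843 FPKM in the others. The summed erythroid list without the globins did not set mouse 3 apart (59.3 FPKM against 38.6 to 60.5 FPKM). Alas2 of that list, which was not among the groups examined, was highest in mouse 3 (21.0 FPKM against 7.18 to 9.34 FPKM), whereas Mkrn1 was highest in mouse 1. Mouse 3 was also the highest for Pf4 (0.900), Nrgn (0.869) and Gm26541 (0.870, 271 FPKM against 209 to 217 FPKM), and Gm15776 was above 0 in mouse 3 only (1). Mouse 1 was the highest for Vwf (0.926) and Rpl41 (0.861) and the lowest for Hist1h2bc (0.866). Mouse 4 was the highest for Ppbp (0.910) and for Ywhaz (0.842, 20.7 FPKM against 4.01 to 6.64 FPKM). Mouse 2 was the highest for Tbxas1 (0.948) and for Actg1 (0.946, 34.0 FPKM against 17.2 to 18.2 FPKM).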

How the results depend on the processing

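The count of 850 entries above 0 in all 4 mice became 812 at a limit of 0.1 FPKM, 592 at 1 FPKM and 1375 when 3 of 4 mice sufficed, and 884 to 1161 when 1 mouse was left out, the highest without mouse 1. The share of the 10 leading genes, 35.2%, became 61.2% with AY036118 kept, 39.6% when only members were summed and, in an alternative chosen after seeing the data, 28.4% without entries that overlap a gene on the opposite strand. It ranged from 34.6% to 36.1% with 1 mouse left out. The mean Spearman rho of 0.756 became 0.400 over entries above 0 in at least 1 mouse, 0.695 over members at 10 FPKM or more, and ranged from 0.729 to 0.762 with 1 mouse left out, while Pearson's r of log2(FPKM + 1) was 0.838. The entries in the top 100 of every mouse numbered 68, and 69 to 75 with 1 mouse left out. The median CV of 52.6% became 38.8% at 10 FPKM or more and ranged from 49.7% to 54.1% with 1 mouse left out, and the 3 other scalings gave 50.8% to 51.4%. The share of overlapping entries among the 100 highest, 51.5%, ranged from 49.5% to 52.5% with 1 mouse left out, in alternatives chosen after seeing the data, and was 49.5% for overlaps of at least 100 bases, against 14.6% of the table.

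Between the sexes, 65 entries at an unadjusted p below 0.05 became 27 at a mean of 5 FPKM or more and 40 among entries above 0 in all 4 mice, where fewer entries were tested, and 153 to 262 with 1 mouse left out, where the lone mouse of 1 sex was assumed to vary like the others and the cause was not tested. The 1 entry with a limma adjusted p below 0.05 became 0 with a pseudocount of 0.1 or 5, at 5 FPKM or more, among entries above 0 in all 4, with quantile normalization, without a trend and without any 1 mouse, and stayed 1 with no filter and after rescaling without AY036118. The adjusted p of RP23-187F18.1 reached at most 0.508 under these settings. No paired analysis was possible because no genotypes were compared and the females and males share no replicate numbers. With 4 mice, unknown depth and unknown use of strand, low members and overlapping genes are the least certain.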

Other observations

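Members were spread over the autosomes and chromosome X. They made up 0.854% of the annotated entries of chromosome X, compared with 1.11% to 3.05% of those of the autosomes. Chromosome 10 held 15.1% of the summed FPKM and chromosome 2 held 13.0%, where Gm26602 and Gm20721 lie. Across members, the longest annotated transcript was shorter for higher members (Spearman's rho -0.456), and the CV was lower for higher members (rho -0.406), both across genes, which are not independent replicates and share the scaling to length. Iron and redox genes included 6 members of 15, led by Fth1 and Ftl1 (72.2, 171, 158 and 113 FPKM in mice 1 to 4), whereas Sod2 and Txn1 were listed at 0 in all 4. Of 15 glycolysis genes, 4 were members, led by Pkm (25.3 ± 11.7 FPKM) and Aldoa (13.2 ± 2.3 FPKM).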
